A study of Mus musculus with 8 samples.

Results

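The 6 genes described here encode the Id proteins Id1, Id2 and Id3 and the E proteins Tcf3 (E2A), Tcf4 (E2-2) and Tcf12 (HEB). They were chosen by symbol, and the FPKM values of rows that shared a symbol were summed. They are 6 of 23284 genes in the tables, and all 6 were among the 11198 genes with a mean of at least 1 FPKM over the 8 libraries. Tcf4 was under 1 FPKM in both naive libraries, so it passed that filter through its effector libraries.

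RNA sequencing was performed on bulk CD4 T cells of DO11.10 Tg mice, which carry a transgenic T cell receptor for an ovalbumin peptide, with 2 libraries in each of 4 groups. Naive CD4 T cells were CD44low CD62Lhigh splenic cells taken without culture. The effector cells came from naive cells cultured for 6 days with the peptide and irradiated BALB/c splenocytes depleted of T cells. Th1 and Th2 cultures shared 30 U/ml of IL-2. The former were polarised with 100 U/ml of IL-12 and 1 μg/ml of an antibody to IL-4, and the latter with 100 U/ml of IL-4 and 10 μg/ml of an antibody to IFNγ. For Th17 cells, 10 ng/ml of each of IL-6, IL-23 and IL-1β was combined with blocking antibodies against IFNγ and IL-4, at 10 μg/ml each. All groups carry the same transgene, there is no cultured group without polarising cytokines, and time in culture and stimulation by antigen cannot be told apart from effector differentiation. The methods give an age of 6 to 12 weeks for the mice of the whole study, and the labels give none per sample. The labels do not say whether the libraries of a group came from separate mice or cultures, so the p-values measure only the spread between these libraries, which may be technical. In bulk RNA, fewer cells that express a gene and less RNA per cell cannot be told apart.

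E proteins are basic helix-loop-helix transcription factors that bind DNA as dimers at E-box motifs, written CANNTG. Id proteins share the helix-loop-helix domain but lack the basic region that contacts DNA, so a dimer of an Id protein and an E protein does not bind an E-box. In lymphocytes, E proteins act in the commitment of B and T cells and in rearrangement of the antigen receptor genes, and Id2 and Id3 are known for setting the limits of E protein activity in effector and memory T cells. Tcf3, Tcf4 and Tcf12 are not the HMG-box factors of the Wnt pathway that carry similar names, such as Tcf7.

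The depth implied by the confidence intervals of the files, read as counting error only, was 14463466 to 21058286 fragments per library. Lineage genes fit the group labels: Tbx21 was at 45.1 and 50.7 FPKM in Th1 and at most 1.66 elsewhere, Gata3 was at 127 and 133 FPKM in Th2 and at most 20.4 elsewhere, and Il17a was at 347 and 335 FPKM in Th17 and at most 0.711 elsewhere. Cd3e stood between 196 and 351 FPKM in every library. The 6 T cell markers, Cd3e among them, summed to 2290 to 2349 FPKM in naive cells and 1970 to 2120 in Th1. In Th2 they summed to 1518 to 1533 FPKM and in Th17 to 1556 to 1754.

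The 6 genes are spread over 6 chromosomes of mm10. Id1 lies at chr2:152736274-152737410, Id2 at chr12:25093799-25096092, Id3 at chr4:136143822-136145392, Tcf3 at chr10:80409165-80433653 and Tcf12 at chr9:71844252-72111819, and exons of no other annotated gene overlap those of any of the 6. Sequence before the RefSeq start is shown for Id2, which rose in all effector subsets, and Tcf12, which fell in all of them, so that the E-box letters near their starts can be seen. The promoter table of RefSeq (GRCm38.p6, the mm10 assembly) held 6 promoters for 4 members, Id2, Id3, Tcf3 and Tcf12. The 250 bases before each start were searched on both strands for CANNTG, and the sequences below give the longest stretch of that window outside annotated exons, 5′ to 3′ on the strand of the gene, with the E-box letters in capitals. The Id2 stretch is chr12:25096254-25096342, minus strand, 89 bases, and the Tcf12 stretch is chr9:72111872-72112069, minus strand, 198 bases. GENCODE also annotates longer Id2 transcripts, so the Id2 gene runs to 25097140 there and the Id2 stretch lies inside it, between exons.
Id2: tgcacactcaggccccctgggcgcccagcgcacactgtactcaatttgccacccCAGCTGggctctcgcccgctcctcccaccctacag
Tcf12: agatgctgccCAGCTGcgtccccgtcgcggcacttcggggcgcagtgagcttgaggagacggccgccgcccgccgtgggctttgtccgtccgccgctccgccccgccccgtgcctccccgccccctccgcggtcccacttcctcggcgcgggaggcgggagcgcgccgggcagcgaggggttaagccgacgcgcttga

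The same 6 letters, CAGCTG, stood 196 bases before the start of Id2 and 240 bases before the first start of Tcf12. The Tcf3 window held a CACTTG 54 bases before its start, and the window of the second Tcf12 start held a CAAGTG at 149 bases. No CANNTG was found in the window of Id3 or in that of the third Tcf12 start. Of 32851 promoters in the table, 66.2% held a CANNTG and 13.0% held a CAGCTG in the same length, so such matches are common and are given as a description only.

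Against naive cells, Id2 rose and Tcf12 fell in all 3 effector subsets, while Id3 and Tcf3 fell in Th2 cells (adjusted p under 0.05, limma). Tcf4 was also called higher in all 3 subsets, but it passed the filter on the mean through its effector libraries. Its direction against naive was thus largely set by the filter and is given as a description. The counts below include Tcf4. All differences below are in log2(FPKM + 1), a scale that understates the change of genes with low values such as Id1 and Tcf4. In Th1 cells 3 of the 6 genes passed the test, 2 higher and 1 lower, where 67.3% of all genes tested passed. In Th2 cells 5 passed, 2 higher and 3 lower, where 70.5% of all genes passed. In Th17 cells 4 passed, 3 higher and 1 lower, where 67.3% of all genes passed. For 6 genes these counts lie near the background of the comparisons, below it in Th1 and above it in Th2. They are not read as a result about the members. The sizes and directions of the members' differences carry the description that follows. The 3 comparisons share the naive libraries.

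**Figure D1:**
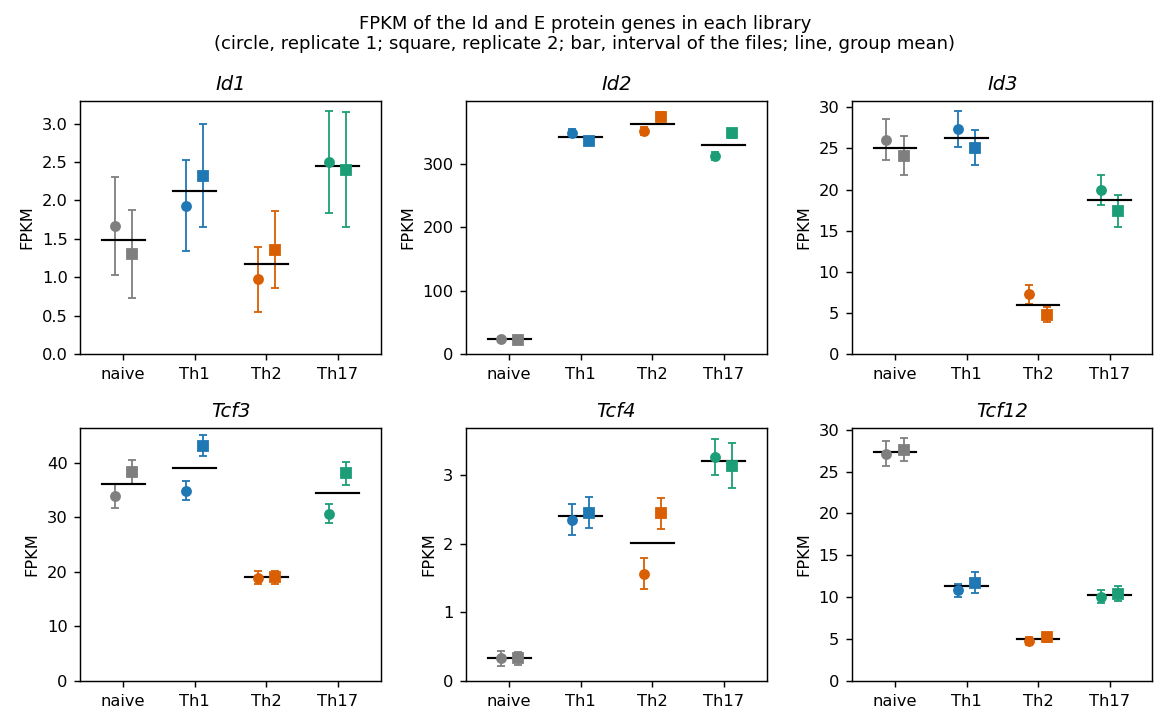
FPKM (y axis, linear from 0) of each Id and E protein gene in the 4 groups (x axis), with a circle for replicate 1, a square for replicate 2, bars for the confidence interval of the files and a line for the group mean. Id2 stands at 22.1 and 24.4 FPKM in naive cells and between 313 and 374 FPKM in the 6 effector libraries, while Tcf12 goes from 27.1 and 27.6 FPKM in naive cells to between 4.75 and 11.7 FPKM.

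Id2 binds E proteins and is the Id protein of innate lymphoid cells and many effector T cells. Its FPKM was 24.4 and 22.1 for naive cells, 349 and 336 for Th1, 352 and 374 for Th2, 313 and 348 for Th17. The naive and effector libraries did not overlap, and every effector library was at least 12.8 times every naive library. The group means were 23.2 ± 1.63 FPKM for naive cells, 343 ± 8.96 for Th1, 363 ± 16.0 for Th2 and 330 ± 25.0 for Th17 (SD, n = 2 libraries each), that is, 14.8, 15.6 and 14.2 times the naive mean. The log2 difference from naive was 3.83 in Th1 (SE 0.107, adjusted p = 3.85e-07), 3.91 in Th2 (adjusted p = 3.08e-07) and 3.77 in Th17 (adjusted p = 3.46e-07, limma with Benjamini-Hochberg adjustment). By size of difference Id2 ranked 298th, 317th and 316th of the 11198 genes in these comparisons. Within a library, it moved from rank 3318 or better in naive cells to rank 206 or better among all genes in the effector libraries.

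The 3 effector subsets could not be told apart by Id2. The difference of Th1 from Th2 was -0.08 with a 95% interval from -0.34 to 0.17, and that of Th17 from Th2 was -0.14 with an interval from -0.39 to 0.12. The difference of Th1 from Th17 was 0.05, with an interval from -0.20 to 0.31. These intervals bound the differences but do not show that the subsets are alike, and the difference of Th17 from Th2 passed the test under median scaling of the libraries (-0.33, adjusted p = 0.0402).

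Id3, the other main Id protein of T cells, is known as a target of T cell receptor signalling through Egr factors. It was at 26.1 and 24.1 FPKM for naive cells, 27.3 and 25.1 for Th1, 7.26 and 4.79 for Th2, 19.9 and 17.4 for Th17. The Th2 libraries lay below all other libraries, and the naive and Th1 values were interleaved. The Th2 mean was 6.02 ± 1.75 FPKM against 25.1 ± 1.38 in naive cells (SD, n = 2 libraries each), 4.17 times lower. The log2 difference was -1.92 (SE 0.172, adjusted p = 6.01e-05, limma). The confidence intervals of the Th2 libraries, 6.13 to 8.39 and 3.86 to 5.71 FPKM, did not overlap each other, so these libraries differed by more than the error that the files assign to each.

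Id3 in Th1 cells differed from naive by 0.06 (95% interval -0.35 to 0.47, adjusted p = 0.774). In Th17 cells both libraries were below both naive libraries, with a difference of -0.41 that missed the threshold (adjusted p = 0.0704, unadjusted p = 0.0493). In the fit with a replicate block the same difference passed (adjusted p = 0.0184), and it also passed without Th2 replicate 1 (adjusted p = 0.0172) or Th2 replicate 2 (adjusted p = 0.0171), the pair with the widest spread of this gene on the log2 scale.

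Id1, an Id protein best known outside T cells and a target of BMP signalling, was low in every library. It was at 1.67 and 1.303 FPKM for naive cells, 1.93 and 2.32 for Th1, 0.973 and 1.36 for Th2, 2.50 and 2.40 for Th17. Those values rest on 21 to 57 implied fragments per library, the number of fragments that the width of the confidence interval corresponds to. Id1 rose in Th17 cells by 0.48 (SE 0.138, adjusted p = 0.0185, limma), and its differences in Th1 (0.33, adjusted p = 0.0684) and Th2 (-0.20, adjusted p = 0.232) missed the threshold. The Th17 and naive libraries did not overlap. The call was lost without naive replicate 2 (0.37, adjusted p = 0.0924), without Th17 replicate 1 (0.46, adjusted p = 0.0717) or without Th17 replicate 2 (0.50, adjusted p = 0.0551), and under quantile normalization the differences in Th17 (-0.11) and Th1 (-0.063) changed sign.

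Tcf12 encodes HEB, an E protein that pairs with E2A during thymocyte development. Its FPKM was 27.1 and 27.6 for naive cells, 10.8 and 11.7 for Th1, 4.75 and 5.22 for Th2, 10.0 and 10.4 for Th17. No effector library overlapped the naive range, and the Th2 libraries lay below the other effector libraries. The means were 27.4 ± 0.344 FPKM for naive cells, 11.3 ± 0.642 for Th1, 4.99 ± 0.334 for Th2 and 10.2 ± 0.286 for Th17 (SD, n = 2 libraries each). The level was thus 2.42, 5.49 and 2.68 times lower than in naive cells in Th1, Th2 and Th17. On the log2 scale Tcf12 fell by 1.21 in Th1 (adjusted p = 2.55e-05), by 2.25 in Th2 (adjusted p = 1.14e-06) and by 1.34 in Th17 (adjusted p = 1.37e-05, limma).

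Tcf3 encodes E12 and E47, the E2A proteins made by alternative splicing, which were summed in the gene value. It was at 33.9 and 38.4 FPKM for naive cells, 34.9 and 43.2 for Th1, 19.0 and 19.0 for Th2, 30.7 and 38.1 for Th17. The naive, Th1 and Th17 ranges overlapped, and both Th2 libraries were below all of them. The Th2 mean was 19.0 ± 0.0274 FPKM against 36.1 ± 3.19 in naive cells (SD, n = 2 libraries each), 1.90 times lower. Tcf3 fell by 0.89 on the log2 scale in Th2 (SE 0.146, adjusted p = 0.0013, limma). Its difference from naive was 0.10 in Th1 (95% interval -0.25 to 0.45, adjusted p = 0.557) and -0.08 in Th17 (95% interval -0.42 to 0.27, adjusted p = 0.67). The Th1 difference changed sign without Th1 replicate 2 (-0.046), and the Th17 difference without naive replicate 2 (0.012) or Th17 replicate 1 (0.077).

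Tcf4 encodes E2-2, the E protein best known for plasmacytoid dendritic cells, and lies at chr18:69344492-69687967. It was at 0.327 and 0.329 FPKM for naive cells, 2.35 and 2.45 for Th1, 1.56 and 2.44 for Th2, 3.26 and 3.14 for Th17. All effector libraries were above both naive libraries, and every effector library was at least 4.74 times every naive library. The rise on the log2 scale was 1.36 in Th1 (adjusted p = 0.00019), 1.16 in Th2 (adjusted p = 0.000365) and 1.66 in Th17 (adjusted p = 6.38e-05, limma). The means were 7.32, 6.10 and 9.75 times the naive mean, but in FPKM Tcf4 stayed the lowest of the E proteins in all 8 libraries. Siglech, a defining marker of plasmacytoid dendritic cells, was at 0 FPKM in all 6 effector libraries, and the 5 markers of that cell type summed to at most 0.999 FPKM there. In naive cells they summed to 15.9 and 21.3 FPKM, of which Pacsin1 made up 15.3 and 21.0 FPKM.

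Markers of other cells that could be in the cultures were measured beside Tcf4, which B cells and dendritic cells also express. The 6 B cell markers summed to 6.58 to 8.61 FPKM for naive cells, 2.51 to 3.42 for Th1, 7.87 to 11.1 for Th2 and 19.6 to 20.2 for Th17. Of the Th17 sum, Ebf1 made up 8.04 and 8.56 FPKM, whereas Pax5 was at most 0.742 FPKM. The 5 dendritic cell markers summed to 0.708 to 0.815 FPKM for naive cells, 1.24 to 1.36 for Th1, 2.73 to 2.82 for Th2 and 3.90 to 3.93 for Th17. Both lists had their highest sums in Th17, the group with the highest Tcf4. Between naive and Th1 cells the B cell sum went the other way, lower in Th1, where Tcf4 was higher. The 6 macrophage and monocyte markers found in the files, which are other cells in which Id2 is known to be expressed, summed to 19.1 to 20.3 FPKM for naive cells, 13.2 to 15.0 for Th1, 32.2 to 35.9 for Th2 and 24.5 to 25.7 for Th17. Mpo, of neutrophil precursors, was at 2.46 to 4.89 FPKM in replicate 1 of the effector groups and at most 0.106 in their replicate 2, where Tcf4 was 2.44 to 3.14 FPKM. Tcf4 in the replicate 1 libraries was 1.56 to 3.26 FPKM. The NK cell markers summed to at most 0.823 FPKM in any library, and Ncr1 was at 0 in all 6 effector libraries. In naive cells Cd8b1 was at 90.5 and 52.8 FPKM and Cd8a at 2.94 and 1.77 FPKM, against 8.77 to 12.9 and at most 0.268 FPKM in effector libraries. The part of these cells in the values of the 6 genes was not tested.

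**Figure D2:**
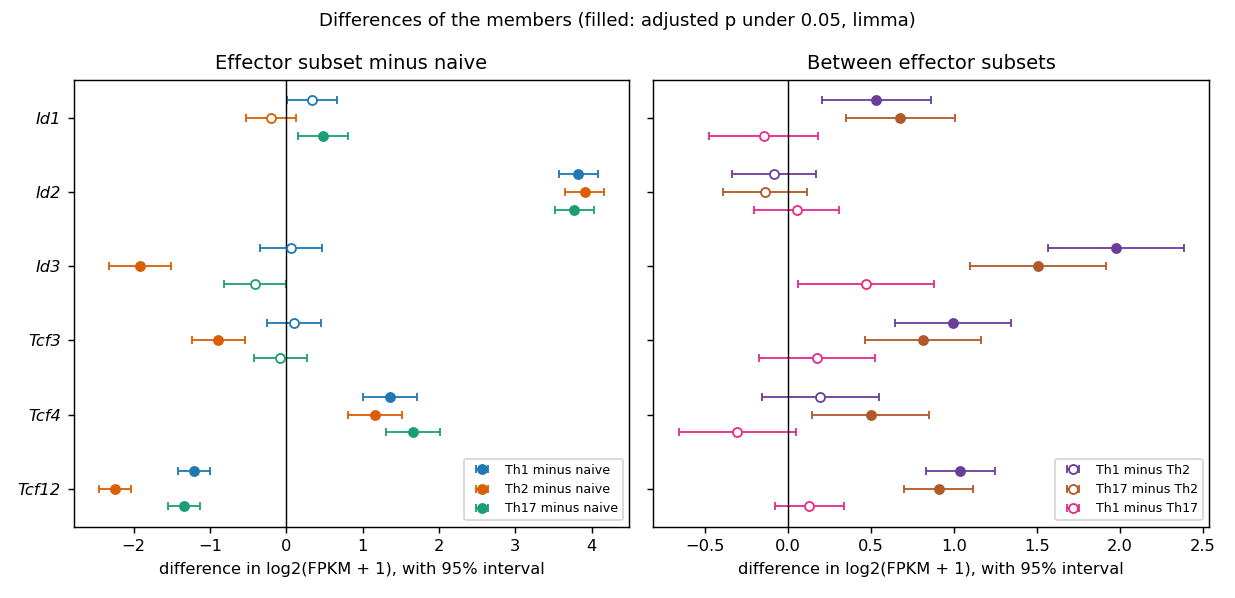
Difference in log2(FPKM + 1) of each gene (x axis, with 95% interval) for each effector subset minus naive (left) and between effector subsets (right), filled where the adjusted p of limma is under 0.05. Id2 sits between 3.77 and 3.91 above naive in all 3 subsets and near 0 between subsets, while Id3, Tcf3 and Tcf12 are higher in Th1 and in Th17 than in Th2.

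Between effector subsets, the Th2 cells had the lower levels of most of these genes. Between Th1 and Th2, 4 of the 6 genes passed the test, all higher in Th1, where 44.3% of all genes passed. Of all genes called there, 61.8% were higher in Th1, and the share was 50.2% with median scaling of the libraries, which left the count of 4 members as it was. Id3 was higher in Th1 by 1.98 (SE 0.172, adjusted p = 0.000174), Tcf12 by 1.04 (adjusted p = 0.000154), Tcf3 by 0.99 (adjusted p = 0.00194) and Id1 by 0.53 (adjusted p = 0.0198, limma). In FPKM, the Th1 means were 4.35 times the Th2 mean for Id3, 2.26 times for Tcf12 and 2.06 times for Tcf3. In each of these genes both Th1 libraries were above both Th2 libraries, which adds nothing to a test on the same libraries.

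Between Th17 and Th2, 5 of the 6 genes passed, all higher in Th17, where 43.6% of all genes passed. Of all genes called, 72.6% were higher in Th17, and 52.3% were so with median scaling, under which 4 members were higher and Id2 was lower in Th17. Id3 was higher in Th17 by 1.51 (adjusted p = 0.000836), Tcf12 by 0.91 (adjusted p = 0.000418), Tcf3 by 0.82 (adjusted p = 0.00506), Id1 by 0.68 (adjusted p = 0.00831) and Tcf4 by 0.50 (adjusted p = 0.0325, limma). The Th17 means were 3.10 times the Th2 mean for Id3, 2.05 times for Tcf12 and 1.81 times for Tcf3. With the voom method on implied fragments, 2 members passed in each of the comparisons with Th2. The share of all genes that passed with it is not reported here, so this count is not a result about the members. The calls lost were those of Id1 and Tcf12 between Th1 and Th2, and of Tcf3, Tcf4 and Tcf12 between Th17 and Th2. The implied fragments of Tcf12 numbered 781 and 369 for Th1, 361 and 381 for Th2, 666 and 577 for Th17. The Th1 library with fewer implied fragments had the higher FPKM, so these numbers are not plain counts.

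The calls with the smallest differences were lost when single libraries were left out, though the difference did not shrink in every such fit. The call of Id1 between Th1 and Th2 was lost without Th1 replicate 2 (0.44, adjusted p = 0.107) or Th2 replicate 1 (0.40, adjusted p = 0.0842). The call of Tcf4 between Th17 and Th2 was lost without Th2 replicate 1 (0.29, adjusted p = 0.0917), Th17 replicate 1 (0.48, adjusted p = 0.109) or Th17 replicate 2 (0.52, adjusted p = 0.101). It was lost as well without either Th1 library, at adjusted p-values of 0.0514 and 0.0515 by limma. Tcf4 did not pass between Th1 and Th2 (0.20, adjusted p = 0.325), but it passed without Th2 replicate 2 (0.41, adjusted p = 0.0442) and changed sign without Th2 replicate 1 (-0.018). The Th2 libraries were the pair with the widest spread in Tcf4, at 1.56 and 2.44 FPKM.

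Between Th1 and Th17, 0 of the 6 genes passed the limma test, where 25.1% of all genes passed. Of all genes called, 36.5% were higher in Th1, and 49.7% were so with quantile normalization. At an unadjusted p under 0.05 the count was 1, Id3, and it was 0 with the voom method. The shares of all genes at these 2 settings are not reported here. Id3 was higher in Th1 by 0.47 (95% interval 0.06 to 0.88, adjusted p = 0.0942), and both Th1 libraries were above both Th17 libraries. In the fit with a replicate block Id3 passed (adjusted p = 0.0257), as it did without Th2 replicate 1 (adjusted p = 0.0294) or Th2 replicate 2 (adjusted p = 0.0292). For Tcf12 the difference was 0.13 (95% interval -0.08 to 0.34), for Tcf3 0.18 (-0.17 to 0.53), for Tcf4 -0.30 (-0.66 to 0.05) and for Id1 -0.15 (-0.47 to 0.18). The widest of these bounds is 0.66 in size, for Tcf4.

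In the order of group means, the neighbours whose difference missed the threshold were therefore Th2, Th1 and Th17 for Id2, and Th1, naive and Th17 for Id3 and Tcf3. For Tcf12 the order was naive, Th1, Th17 and Th2, and of the neighbours only Th1 and Th17 missed it. For Tcf4 the order was Th17, Th1, Th2 and naive, and the differences of Th1 from both of its neighbours missed it. For Id1 the order was Th17, Th1, naive and Th2, and no difference between neighbours passed.

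The makeup of each family also differed between naive and effector cells. FPKM is per length of transcript, so these levels can be compared between genes, but they count RNA and not protein. In naive cells Id2 made up 46.8% and 46.5% of the FPKM of the 3 Id genes and Id3 made up 50.04% and 50.8%. In the effector libraries Id2 made up 92.3% to 98.4%. Id3 was thus the larger share in naive cells and Id2 in all effector libraries. The ratio of Id2 to Id3 was 0.935 and 0.914 for naive cells, 12.8 and 13.4 for Th1, 48.4 and 78.2 for Th2, 15.7 and 20.0 for Th17. Among the E protein genes, Tcf12 went from 44.2% and 41.6% in naive cells to between 18.8% and 22.8% in effector libraries, and Tcf3 from 55.2% and 57.9% to between 69.8% and 75.3%. Tcf4 went from 0.534% and 0.496% to between 4.28% and 9.16%. The shares are a description, with no test.

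**Figure D3:**
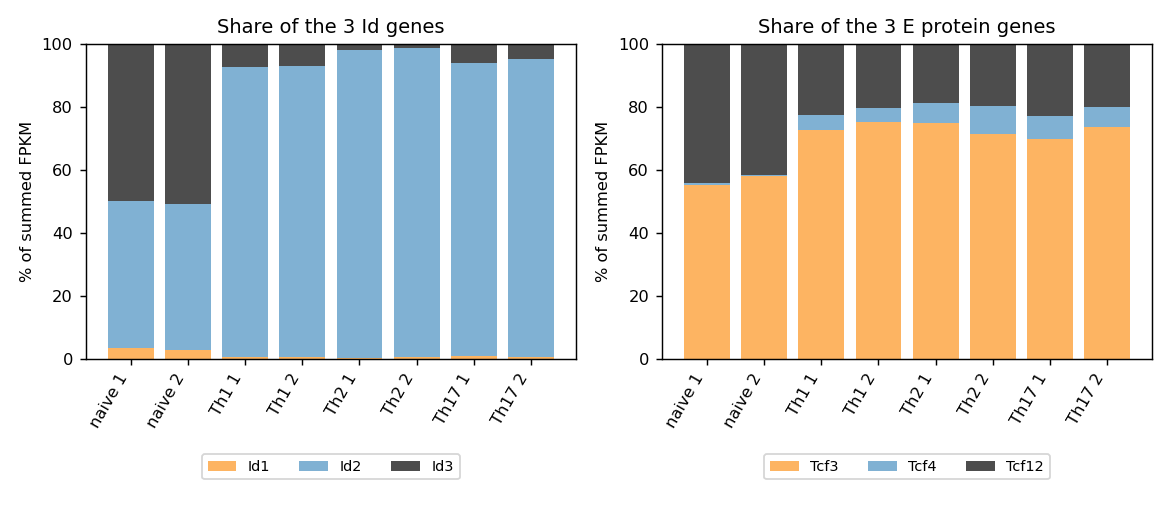
Share of the summed FPKM (y axis, %) taken by each Id gene (left) and each E protein gene (right) in every library (x axis). Id2 and Id3 take near-equal shares in naive libraries and Id2 takes at least 92.3% in every effector library, while the Tcf12 share is 41.6% or more in naive and 22.8% or less in effector libraries.

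The summed FPKM of the Id genes was 52.1 and 47.5 for naive cells, 378 and 364 for Th1, 360 and 380 for Th2, 335 and 368 for Th17. That of the E protein genes was 61.3 and 66.3 for naive cells, 48.1 and 57.4 for Th1, 25.3 and 26.7 for Th2, 44.0 and 51.7 for Th17. Id sums were higher in every effector library than in naive cells, and E protein sums were lower. The ratio of E protein to Id FPKM was 1.18 and 1.40 for naive cells, 0.127 and 0.158 for Th1, 0.0702 and 0.0701 for Th2, 0.131 and 0.141 for Th17. The mean ratio was 1.29 ± 0.155 in naive cells and 0.142 ± 0.0216 in Th1 (SD, n = 2 libraries each). In Th2 cells it was 0.0702 ± 8.88e-05, an SD that 2 libraries estimate only roughly, and in Th17 cells 0.136 ± 0.00655.

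To see which family carries that ratio, each was held at its naive mean in turn. With the Id sum at the naive mean, the ratio was 0.966 and 1.15 for Th1, 0.508 and 0.536 for Th2, 0.883 and 1.04 for Th17. With the E protein sum at the naive mean, it was 0.168 to 0.191 in the 6 effector libraries, with little distance between subsets. The distance of effector from naive cells thus came mostly from the Id sum, and that of Th2 from the other subsets from the E protein sum. Without Id2 the ratio was 2.21 and 2.61 for naive cells, 1.64 and 2.09 for Th1, 3.07 and 4.34 for Th2, 1.96 and 2.61 for Th17, so the Th2 libraries went from the lowest ratio to the highest.

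**Figure D4:**
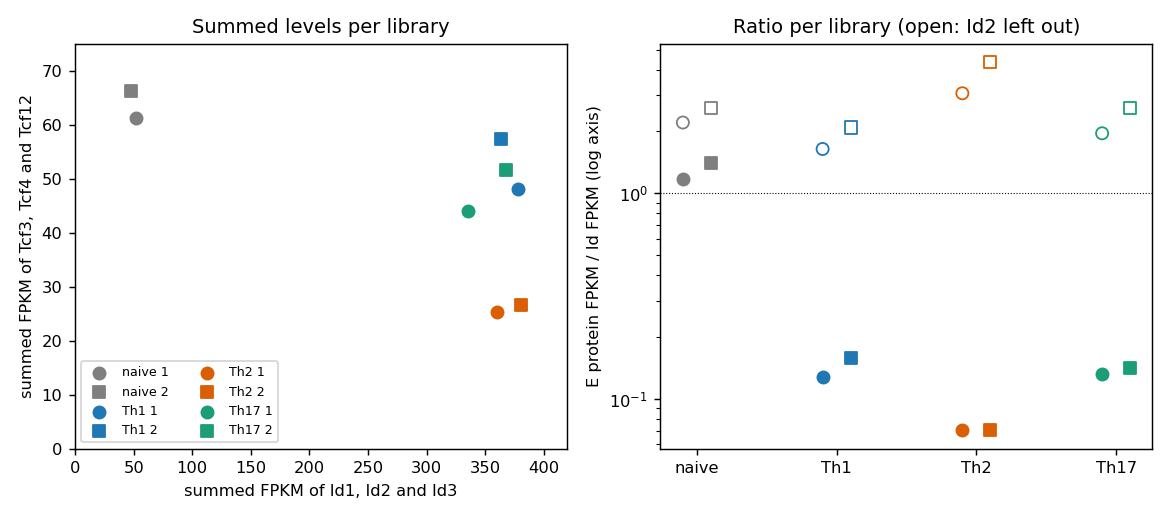
Left, summed FPKM of the 3 E protein genes (y axis) against that of the 3 Id genes (x axis), with a symbol for each library; right, their ratio in each library (log axis), filled for all Id genes and open with Id2 left out. The Th2 libraries have the lowest filled ratios, 0.0701 and 0.0702, and the highest open ratios, 3.07 and 4.34.

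Over the 8 libraries on the log2 scale, Tcf4 went with Id2 (Pearson r = 0.938) and Tcf12 against it (r = -0.876), and Id3 went with Tcf3 (r = 0.918). These correlations describe 8 points that fall into naive and effector libraries, and no p-value is given. Among all genes tested, the closest to Id2 were Pgk1 (r = 0.999), a glycolytic enzyme, and Ifitm2 (r = 0.999), an interferon-induced membrane protein. Pgk1 was at 51.2 and 47.6 FPKM in naive cells and at 1299 to 1596 FPKM in effector libraries. The closest to Tcf12 were Ulk2 (r = 0.999), a kinase of the autophagy pathway, and 1110038D17Rik (r = 0.998). The closest to Id3 were Eif1ad (r = 0.993) and Tm9sf1 (r = 0.984), which like Id3 had their lowest values in the Th2 libraries. Tcf3 was followed most closely by Mon1a (r = 0.998) and Gtf2i (r = 0.995), and Tcf4 by Dpp4 (r = 0.992), the surface peptidase CD26, and Lepr (r = 0.991), the leptin receptor. Id1 was followed less closely, by Armcx2 (r = 0.964) and Gng12 (r = 0.956). These genes were picked from 11198 for their r, which rests on 8 libraries in 4 groups.

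Other helix-loop-helix genes can pair with E proteins as Id proteins do or as DNA-binding partners. Of 16 such genes, 2 had a mean of at least 1 FPKM, Lyl1 and Msc. Both were under 1 FPKM in naive cells and passed that filter through their effector libraries, so their direction against naive was largely set by the filter and is given as a description. Msc, a repressor also called MyoR or ABF-1, was listed at 0 in both naive libraries and was at 4.45 and 4.18 FPKM for Th1, 1.34 and 0.790 for Th2, 15.3 and 18.7 for Th17. It was higher in Th17 than in Th2 by 3.13 (adjusted p = 2.58e-05, limma). Lyl1, a partner of E proteins in blood cells, went from 0.355 and 0.247 FPKM in naive cells to between 2.59 and 5.88 FPKM. Id4, the remaining Id gene, was listed at 0 in all libraries except Th2 replicate 1, at 0.045 FPKM.

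Some repressors bind E-boxes without an E protein partner. Of 9 in the list, 3 were tested, and 2 were higher in Th1, 2 in Th2 and 3 in Th17, with none lower, where 67.3%, 70.5% and 67.3% of all genes tested passed. The medians were 0.88, 0.49 and 0.54, against -0.01, -0.11 and 0.08 over all genes tested. Bhlhe40 and Snai3 were under 1 FPKM in both naive libraries and passed the filter on the mean through effector libraries. Their rise from naive was thus largely set by the filter. With quantile normalization 2 were higher and 1 lower in Th2. Bhlhe40, a repressor known for its part in cytokine production by T helper cells, rose from 0.705 and 0.935 FPKM in naive cells to between 67.5 and 213 FPKM in effector libraries. Its difference from naive was 6.53 in Th1 (adjusted p = 1.48e-06), 5.65 in Th2 (adjusted p = 2.32e-06) and 6.74 in Th17 (adjusted p = 1.16e-06, limma).

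Of 11 cofactors of E proteins, 8 were tested, and the counts higher and lower than naive came to 0 and 4 for Th1, 0 and 6 for Th2, 1 and 5 for Th17. These counts are near or below the 67.3%, 70.5% and 67.3% of all genes that passed. The medians were -0.70, -0.97 and -0.76, against -0.01, -0.11 and 0.08 over all genes tested. Lmo4, a LIM adaptor that bridges E protein complexes, fell from 22.2 and 17.4 FPKM in naive cells to between 2.56 and 6.35 FPKM. Crebbp, a histone acetyltransferase that E proteins recruit, fell from 11.1 and 19.5 FPKM in naive cells to between 3.27 and 5.96 FPKM.

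Of 18 genes known as targets of E proteins in lymphocytes, 11 were tested. The counts higher and lower than naive came to 5 and 2 for Th1, 5 and 3 for Th2, 7 and 1 for Th17, near the 67.3%, 70.5% and 67.3% of all genes that passed. The medians were 0.29, 0.03 and 1.03, against -0.01, -0.11 and 0.08 over all genes tested. The list mixes genes that E proteins activate with genes that they repress. Its counts and medians therefore give no direction of E protein activity. With quantile normalization, 5 were higher and 5 lower in Th2 and the median there was -0.37. Cdkn1a, the cell cycle inhibitor p21 that E2A is known to activate, rose from 0.102 and 0.360 FPKM in naive cells to between 133 and 225 FPKM. Cdk6, a cell cycle kinase that E2A is known to repress in thymocytes, rose from 0.944 and 1.38 FPKM to between 26.7 and 43.7 FPKM. Gfi1, a transcriptional repressor, rose from 4.24 and 3.80 FPKM to between 12.9 and 36.8 FPKM. Ebf1, a B lineage factor under E2A control, was at 0.0214 and 0 FPKM in naive cells and at 8.04 and 8.56 FPKM in Th17, where it was higher than in Th2 by 2.11 (adjusted p = 7.01e-05, limma). Ebf1, Pax5 and Cd79a of this list are also in the B cell marker list. Cdkn1a and Ebf1 were under 1 FPKM in naive cells and passed the filter on the mean through effector libraries.

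Of 18 genes that act upstream of Id expression, 16 were tested, and the counts higher and lower than naive came to 4 and 12 for Th1, 4 and 8 for Th2, 5 and 8 for Th17, where 67.3%, 70.5% and 67.3% of all genes passed. Of all genes tested, 3790 passed as higher and 3750 as lower in Th1. The medians were -0.97, -0.21 and -0.34, against -0.01, -0.11 and 0.08 over all genes tested. Smad4, the common mediator of BMP and TGF-β signals, fell from 34.0 and 34.1 FPKM in naive cells to between 13.3 and 15.0 FPKM. Smad7, which inhibits that pathway, fell from 34.9 and 38.2 FPKM to between 3.91 and 6.78 FPKM. Bmpr1a, a BMP receptor, rose from 0.480 and 0.166 FPKM to between 3.996 and 8.02 FPKM. Acvr1, at 0.24 and 0.14 FPKM, and Bmpr2, at 0.53 and 0.70 FPKM, were also under 1 FPKM in naive cells. Bmpr1a, Acvr1 and Bmpr2, counted as higher in every subset, passed the filter through effector libraries, which largely set their direction. Prdm1, which encodes Blimp-1, a repressor of Id3, was at 1.78 and 2.28 FPKM for naive cells, 19.8 and 25.2 for Th1, 12.9 and 13.0 for Th2, 3.17 and 3.12 for Th17. It was higher in Th1 than in Th17 by 2.49 (adjusted p = 4.17e-05, limma).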

How the data were processed

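RNA from naive, Th1, Th2 and Th17 cells was sequenced by the authors, who aligned the reads to mm10 with Bowtie 0.12.8 and TopHat 1.3.2. They deposited FPKM per gene with a confidence interval, computed with Cufflinks 2.0.2. The annotation used is not given in the sources used here. The sources name different TruSeq kits, and whether counting used strand is not known.

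Rows of the same symbol were summed. The 11198 genes whose mean FPKM reached 1 were tested on log2(FPKM + 1) by limma (version 3.58.1, R 4.3.3), using lmFit followed by eBayes with a trend, in a model of 4 group means that took in all 8 libraries. The two-sided p-values received Benjamini-Hochberg adjustment across those genes, with a threshold of 0.05. Python 3.11.15 with numpy 2.4.6, pandas 2.3.3 and matplotlib 3.10.9 made the tables and figures. Implied fragments were computed from the interval, taken as 2 SD on each side, as if it held counting error only. For Tcf12 in Th1 they numbered 781 at 10.8 FPKM and 369 at 11.7 FPKM, with nearly the same implied depth. The interval can therefore hold more than counting error. Implied fragments are thus not counts, and voom on them is only a rough check. The limma script was tested on simulated data. Promoters came from RefSeq and exons from GENCODE.

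The members and gene lists were chosen with earlier results of these data known. List genes are named where they passed in all 3 comparisons with naive in 1 direction with a difference of at least 1 in size, up to 4 a direction, or differed by at least 2 between effector subsets, up to 2 a list; for each member, the 2 genes with the highest Pearson r are named. Single values of some list and marker genes are not reported here. The labels do not say whether replicate numbers pair the libraries across groups. The differences between replicates correlated at 0.138 to 0.294 in all 6 pairs of groups, and the source of that was not tested. The main model has no term for the replicate, and the replicate block is an alternative. Alternatives were another pseudocount, other filters, median scaling, quantile normalization, only the 2 groups compared, no trend, the replicate block, the largest row per symbol, voom on implied fragments and leaving out each library.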

Additional observations from a re-analysis of the deposited data

Results flagged for a closer look

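The difference of effector from naive cells was not the same in all subsets for several of the 6 genes. Because Th1 and Th2 share the naive libraries, comparing them directly compares their differences from naive, and limma tested this in the same fit. Against Th2, the value in Th1 was higher by 1.98 for Id3 (adjusted p = 0.000174), 1.04 for Tcf12 (adjusted p = 0.000154), 0.99 for Tcf3 (adjusted p = 0.00194) and 0.53 for Id1 (adjusted p = 0.0198). Against Th2, the value in Th17 was higher by 1.51 for Id3 (adjusted p = 0.000836), 0.91 for Tcf12 (adjusted p = 0.000418), 0.82 for Tcf3 (adjusted p = 0.00506), 0.68 for Id1 (adjusted p = 0.00831) and 0.50 for Tcf4 (adjusted p = 0.0325). Several of these calls were lost with voom on implied fragments, as given below. In each case both libraries of the subset named first were above both Th2 libraries. The genes were picked by the test on the same libraries, so this separation adds nothing to it. Its share over all genes is not reported here. With 2 libraries per group, single libraries were not tested for standing apart.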

How the results depend on the processing

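Of 648 differences of the 6 genes recomputed under the alternatives, 605 had the same sign and call as reported, 19 lost the call, 13 gained it and 11 changed sign. The differences of Id2, Tcf4 and Tcf12 from naive cells kept sign and call in every alternative. For Tcf4 this is a description, since the filter on the mean largely set its direction. The causes of the changes given here were not tested. Median scaling moved the median of all genes from -0.11 to 0.05 for Th2 against naive and from 0.18 to 0.02 for Th17 against Th2, and quantile normalization moved that of Th17 against naive from 0.08 to -0.09.

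With median scaling, Id1 passed for Th1 against naive (0.38) and Id2 for Th17 against Th2 (-0.33), and Tcf4 was lost for Th17 against Th2 (0.36). With quantile normalization, Id1 changed sign for Th1 against naive (-0.063), Th17 against naive (-0.11) and Th1 against Th17 (0.045) and passed for Th2 against naive (-0.57), Id2 changed sign for Th1 against Th17 (-0.039), and Tcf4 was lost for Th17 against Th2 (0.30). With only the 2 groups compared, Id3 passed for Th17 against naive (-0.41) and Th1 against Th17 (0.47), which made 1 member called in the latter, and Tcf4 was lost for Th17 against Th2 (0.50). With the replicate block, Id3 passed for Th17 against naive (-0.41) and Th1 against Th17 (0.47, 1 member called), and the block changed no other call of a member. With voom on implied fragments, 2 members were called in each comparison with Th2, and the share of all genes called is not reported here. The calls lost were those of Id1 for Th17 against naive (0.64) and Th1 against Th2 (0.80), Tcf12 for Th1 against Th2 (0.48) and Th17 against Th2 (0.81), and Tcf3 (0.52) and Tcf4 (0.76) for Th17 against Th2. Id3 passed for Th17 against naive (-0.50), and signs changed for Id3 in Th1 against naive (-0.039) and Tcf12 in Th1 against Th17 (-0.32).

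When single libraries were left out, the difference from naive ranged from -0.046 to 0.25 for Tcf3 in Th1, 0.37 to 0.58 for Id1 in Th17, -0.50 to -0.32 for Id3 in Th17 and -0.23 to 0.077 for Tcf3 in Th17. Th1 against Th2 ranged from 0.40 to 0.66 for Id1 and -0.018 to 0.41 for Tcf4, and Th17 against Th2 from 0.29 to 0.71 for Tcf4. Th1 against Th17 ranged from -0.022 to 0.13 for Id2 (negative without Th17 replicate 1) and 0.38 to 0.56 for Id3, with 0 to 1 members called, the 1 without either Th2 library. The number of all genes called ranged from 3097 (without Th1 replicate 2) to 4959 for Th1 against Th2 and was 3162 without Th2 replicate 2. For Th17 against Th2 it ranged from 2715 (without Th17 replicate 2) to 4914 and was 2991 without Th2 replicate 2. For Th1 against Th17 it ranged from 1546 (without Th1 replicate 2) to 2789, and was 1565 to 1705 without any other library of those groups. Depth limits Id1, which rests on 21 to 57 implied fragments.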
